A study of Mus musculus with 6 samples.

Results

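The 8 genes described here, Tyms, Shmt1, Shmt2, Mthfd1, Mthfd1l, Mthfd2, Mtrr and Mat2a, encode enzymes of the one-carbon folate cycle and of the methionine branch that supplies methyl groups. They were found by symbol, and all 8 of 8 symbols matched 1 entry each among the 28879 genes of the expression table. Mouse blastocysts were compared after vitrification and warming or without either step, with 3 vitrified–warmed and 3 fresh RNA-Seq libraries. Donor females were 6 to 8 weeks old and were given pregnant mare serum gonadotrophin, then 5 IU of human chorionic gonadotrophin 48 h later. The sample labels and the methods name the strain C57BL/6JNarl, whereas the series text names B6CBF1 embryos, and neither assigns the strains to groups. In both groups the embryos had grown for 3 days in human tubal fluid, and only the vitrified–warmed embryos went through a commercial vitrification and warming kit (Cryotech). The blastocysts of each group were combined into 1 pool before it was split into 3 aliquots, so every p-value below measures the spread between aliquots of a pool and none covers the spread between pools, litters or embryos.

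Folate carries single carbon units at several oxidation states. Serine is the main donor, and its carbon enters the cycle through a serine hydroxymethyltransferase that works either in the cytosol (Shmt1) or in the mitochondrion (Shmt2). The mitochondrial branch (Shmt2, Mthfd2, Mthfd1l) releases formate, which the cytosolic enzyme Mthfd1 picks up again for purine synthesis, for thymidylate synthesis by Tyms and for the remethylation of homocysteine to methionine, where Mtrr keeps methionine synthase active. Mat2a then joins methionine to ATP to make S-adenosylmethionine, the methyl donor for DNA, RNA and histones, all of which are remodelled in the preimplantation embryo.

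The vitrified–warmed libraries held 9093411 to 11275436 exon fragments and the fresh ones 10788884 to 11843562. Exon fragments were 54.4% to 56.6% of the library total behind the FPKM values (fragments scaled by exon length and by that total) in vitrified–warmed libraries and 63.2% to 63.6% in fresh libraries, so that FPKM read lower in the vitrified–warmed group than CPM did (exon fragment counts scaled to a common total of exon fragments). Fresh replicate 1 stood apart, with 20086 genes detected against 15558 and 15991 in the other fresh libraries, while the vitrified–warmed libraries had 17563 to 17764. Without fresh replicate 1, the same number of the 8 genes were called in each direction, 1 higher and 5 lower. All 8 trophectoderm, 6 epiblast and 5 primitive endoderm markers were detected, with summed levels of 471.9 to 494.8, 139.7 to 148.5 and 36.4 to 41.4 FPKM in vitrified–warmed libraries, against 470.4 to 482.2, 157.6 to 162.8 and 31.5 to 32.2 FPKM in fresh libraries. Blood markers (6 of 7 detected, Hba-a2 at 0) summed to 10.8 to 14.5 FPKM in vitrified–warmed libraries and 3.03 to 3.83 FPKM in fresh libraries. Cumulus markers (5 of 5 detected) stayed at or under 0.298 and 0.721 FPKM in vitrified–warmed and fresh libraries, oviduct markers (3 of 3) at or under 0.0453 and 0.42 FPKM, and of 4 sperm markers Prm1 alone was detected, at 0.131 to 0.251 FPKM in vitrified–warmed libraries and 0 in fresh ones, with Prm2, Tnp1 and Tnp2 at 0 throughout. The part of any of these in the results was not tested, and in pooled embryos fewer cells of a type and less RNA per cell cannot be told apart.

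In vitrified–warmed blastocysts, 5 of the 8 genes were lower and 1 was higher than in fresh blastocysts. Mtrr, Mat2a, Mthfd1, Shmt1 and Tyms fell, Mthfd2 rose, and Shmt2 and Mthfd1l did not pass the test (edgeR quasi-likelihood test, Benjamini–Hochberg adjusted p under 0.05). All 8 passed the filter on low counts. So many genes differed between the groups that these shares need the background beside them: of 12774 genes tested, 8222 (64.4%) were called in either direction, against 6 of the 8, while 4188 (32.8%) were called lower, against 5 of the 8, and 4034 (31.6%) were called higher, against 1 of the 8. The median log2 fold change over the 8 genes was -0.28, beside -0.0011 over all genes tested. The 3 vitrified–warmed libraries did not overlap the 3 fresh libraries in 6 of the 8 genes, as in 8762 (68.6%) of all genes tested. The study's thresholds (mean above 0.5 FPKM, unadjusted p under 0.05, at least 1.5-fold) were applied here to the scaled counts. At these, 1 of the 8 was called lower, Mtrr, beside 1477 (15.3%) of 9669 eligible genes, and none of the 8 was called higher, beside 1172 (12.1%). On log2(FPKM + 0.5), Mat2a (-0.75) and Mthfd1 (-0.64) also fell by at least 1.5-fold, with 1690 genes lower and 607 higher at these thresholds (limma). The number of the 8 called in either direction was thus near the background. The balance of lower and higher calls over all genes depended on the scale: on log2(FPKM + 0.5), tested with limma, 5542 genes were lower and 2647 higher, and the 8 genes again had 5 lower and 1 higher.

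**Figure D1:**
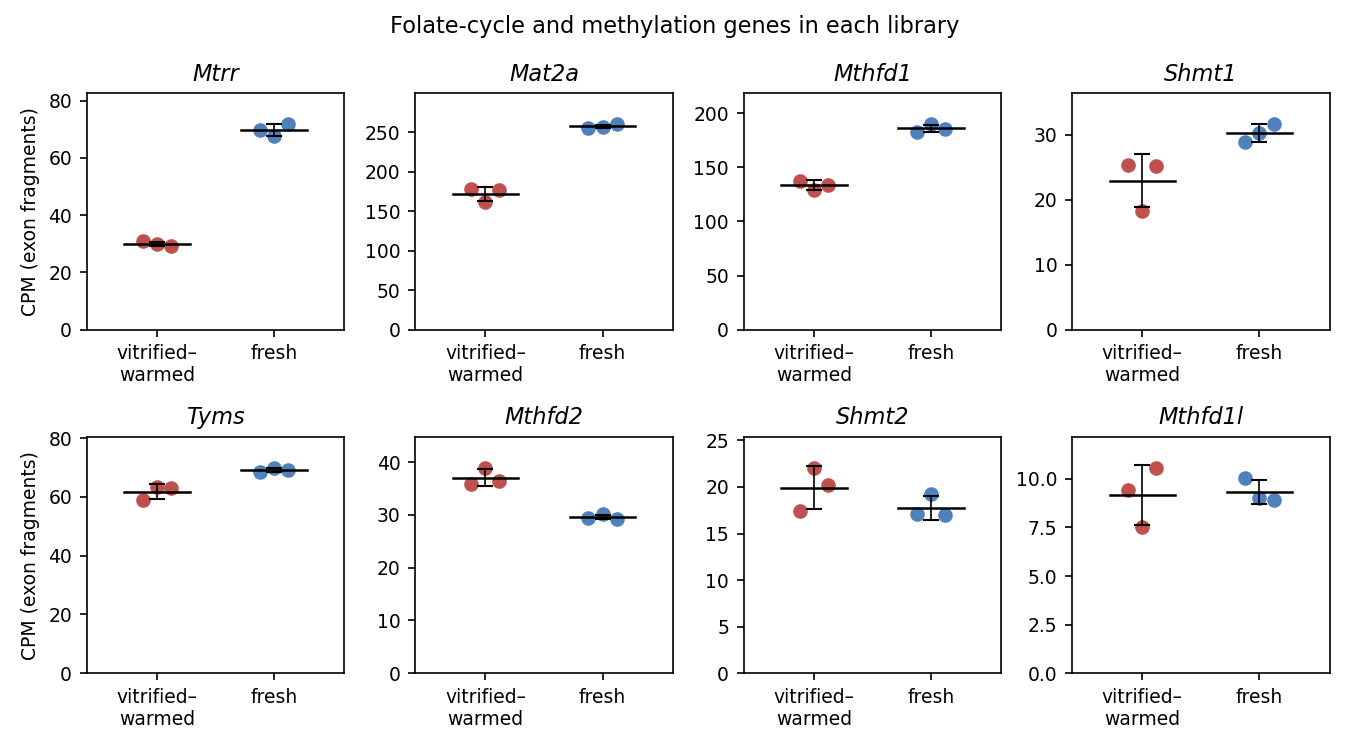
CPM (exon fragment counts scaled to a common total, y axis from 0, one scale per gene) in the 3 vitrified–warmed libraries (red) and the 3 fresh libraries (blue), with the mean (line) and SD (bar) of each group. The groups do not overlap in Mtrr, Mat2a, Mthfd1, Shmt1 and Tyms, which are lower in vitrified–warmed blastocysts, and in Mthfd2, which is higher, while they overlap in Shmt2 and Mthfd1l.

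The promoter sequences of genes that moved in opposite directions are shown here so that they can be compared beside the changes. RefSeq promoter windows (GRCm38.p6, 250 bases before to 50 after a start site) matched all 8 genes, with 2 windows for Mtrr. Printed 5′ to 3′ on each gene's own strand are the 150 bases before the start site of the 4 genes with the most different changes and of Tyms, with capitals marking a CCAAT box (CCAAT or its reverse complement ATTGG), a GC box (GGGCGG or CCGCCC), an E-box (CACGTG) and a TATA box (TATAAA), each searched on both strands. They lie at chr13:68582105-68582254 (Mtrr, minus strand, the window with the start site nearer the gene), chr6:72439557-72439706 (Mat2a, minus), chr12:76255082-76255231 (Mthfd1, plus), chr5:30073626-30073775 (Tyms, minus) and chr6:83317605-83317754 (Mthfd2, minus), and the RefSeq start sites of Mtrr, Mat2a and Mthfd2 fall inside the spans that the table gives for these genes.
Mtrr: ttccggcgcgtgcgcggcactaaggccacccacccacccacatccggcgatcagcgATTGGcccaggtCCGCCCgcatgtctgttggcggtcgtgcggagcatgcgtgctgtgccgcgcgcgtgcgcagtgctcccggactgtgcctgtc
Mat2a: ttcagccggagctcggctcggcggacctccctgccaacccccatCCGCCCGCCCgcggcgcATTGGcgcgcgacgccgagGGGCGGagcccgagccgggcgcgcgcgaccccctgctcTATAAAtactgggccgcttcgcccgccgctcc
Mthfd1: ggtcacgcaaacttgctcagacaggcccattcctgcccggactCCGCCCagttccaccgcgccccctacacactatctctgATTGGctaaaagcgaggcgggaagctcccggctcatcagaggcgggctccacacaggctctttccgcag
Tyms: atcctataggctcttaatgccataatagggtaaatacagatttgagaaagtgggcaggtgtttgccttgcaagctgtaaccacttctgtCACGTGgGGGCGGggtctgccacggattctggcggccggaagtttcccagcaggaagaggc
Mthfd2: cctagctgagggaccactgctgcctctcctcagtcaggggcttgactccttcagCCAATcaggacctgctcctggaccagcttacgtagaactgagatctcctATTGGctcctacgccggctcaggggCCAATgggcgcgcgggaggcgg

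Over the whole windows, a CCAAT box was present in 5 of the 8 genes (Shmt1, Mthfd1, Mthfd2, Mtrr and Mat2a), beside 37.4% of 32851 mouse windows. Mthfd2, the gene that rose, has 3 CCAAT boxes, at positions -96, -47 and -22. A GC box was present in 6 of the 8 genes, beside 35.7% of all windows. It was absent from Mthfd2 and from Shmt2, which was not called. The E-box was found in Tyms alone, at position -61 (7.15% of all windows), and the TATA box in Mat2a alone, at position -32 (13.6%). None of the 8 windows held the E2F motifs TTTCCCGC (1.07% of windows) or TTTGGCGC (0.514%) or the ATF4 element TGATGNAA (3.97%), where N is any base. The windows of Mtrr (37 and 39 CpG dinucleotides) and Mat2a (34) were the most CpG-rich of the 8, beside a median of 7 over all windows. The shares and the median over all windows are not limited to genes expressed in these embryos, and none was computed for the genes tested. They therefore do not show whether the 8 genes differ from other expressed genes. These matches describe letters in a window, and no binding was measured.

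The gene with the largest change was Mtrr, the reductase that returns methionine synthase to its active state (chr13:68560780-68582121, minus strand, 20 exons). Mtrr had 330, 274 and 328 exon fragments in the vitrified–warmed libraries, against 759, 762 and 837 in the fresh libraries. That is 30.8, 29.8 and 29.1 CPM in vitrified–warmed libraries and 69.8, 67.5 and 71.7 CPM in fresh libraries. The replicates were tight in both groups and lay far apart between them. The log2 fold change of Mtrr was -1.22 (SE 0.065, 95% confidence interval -1.36 to -1.08), so that its level fell by 57.1% in vitrified–warmed blastocysts, with an adjusted p of 1.49e-09 (edgeR). It ranked 21 by adjusted p among the 12774 genes tested, and 8.77% of those genes had a lower fold change.

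Mtrr shares its promoter region with Fastkd3, which encodes a mitochondrial RNA-binding protein and starts 41 bases from the end of the Mtrr span on the opposite strand (chr13:68582163-68592338), inside the Mtrr stretch printed above. Fastkd3 had 268, 242 and 291 fragments in vitrified–warmed libraries and 287, 299 and 336 in fresh libraries, a log2 fold change of -0.08 (SE 0.084, 95% confidence interval -0.26 to 0.09, adjusted p = 0.402, edgeR). Of this divergent pair, Mtrr alone passed the test. The log2 ratio of Mtrr over Fastkd3 fragments within a library, a ratio chosen after the values were seen, was 0.30, 0.18 and 0.17 in vitrified–warmed libraries and 1.40, 1.35 and 1.32 in fresh libraries. The difference was -1.14 (SE 0.048), with no overlap between the groups (exact permutation test, two-sided p = 0.1, the smallest that 3 against 3 libraries allow).

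Mat2a, the catalytic subunit of the methionine adenosyltransferase found outside the adult liver (chr6:72432796-72439608, minus strand, 11 exons), had the highest level of the 8 genes. It had 1905, 1484 and 1988 fragments (178, 161 and 177 CPM) in vitrified–warmed libraries and 2781, 2900 and 3037 fragments (256, 257 and 260 CPM) in fresh libraries. All vitrified–warmed libraries were below all fresh libraries, with replicate 2 the lowest. The log2 fold change of Mat2a was -0.58 (SE 0.044, 95% confidence interval -0.67 to -0.49, adjusted p = 3.63e-08, edgeR). Its fitted fold of 0.668 on the scaled counts fell just short of the 1.5-fold threshold, which lay inside the 95% confidence interval of 0.627 to 0.712. On deposited FPKM, with means of 30.0 in vitrified–warmed and 50.6 in fresh libraries, it passed 1.5-fold. In GENCODE M21 transcripts, 10.2% of the 75-base stretches of Mat2a occur in another gene, mostly the antisense RNA Particl, and the strand setting of the counting is not given in the sources used here.

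Mthfd1, the cytosolic enzyme with synthetase, cyclohydrolase and dehydrogenase activities (chr12:76255232-76319820, plus strand, 28 exons), also fell. Its fragments numbered 1476, 1185 and 1506 in vitrified–warmed libraries and 1987, 2141 and 2158 in fresh libraries, or 138, 129 and 134 CPM against 183, 190 and 185 CPM. The spread within each group was small beside the gap between the groups. The log2 fold change was -0.48 (SE 0.043, 95% confidence interval -0.57 to -0.38, adjusted p = 2.24e-07, edgeR) and the level fell by 28.1%. By fold change, 22.4% of all genes tested were lower than Mthfd1 and 19.2% lower than Mat2a.

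Shmt1, the cytosolic serine hydroxymethyltransferase (chr11:60788892-60811265, minus strand, 14 exons), had 272, 168 and 283 fragments in vitrified–warmed libraries and 314, 342 and 369 in fresh libraries. In CPM these were 25.4, 18.3 and 25.1 in vitrified–warmed libraries and 28.9, 30.3 and 31.6 in fresh libraries. Vitrified–warmed replicate 2 was well below the other vitrified–warmed libraries, and those lay closer to the lowest fresh library. The log2 fold change of Shmt1 was -0.39 (SE 0.11, 95% confidence interval -0.63 to -0.16, adjusted p = 0.00566, edgeR) with all libraries and -0.26 (adjusted p = 0.0118, edgeR) without vitrified–warmed replicate 2, over adjusted p-values of 0.00224 to 0.0327 in 15 alternatives. An uncharacterized noncoding RNA, LOC105246873, lies within the Shmt1 span on the opposite strand. It had 19, 9 and 22 fragments in vitrified–warmed libraries and 5, 1 and 1 in fresh libraries, the opposite direction to Shmt1.

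Tyms, which methylates dUMP to make thymidylate for DNA synthesis (chr5:30058200-30073625, minus strand, 9 exons), had the smallest difference of the called genes. The vitrified–warmed libraries had 630, 583 and 708 Tyms fragments (58.8, 63.4 and 62.9 CPM) and the fresh libraries 744, 789 and 806 (68.4, 69.9 and 69.1 CPM). These CPM values do not overlap, although the gap between the closest libraries is about as wide as the spread within the vitrified–warmed group. The log2 fold change was -0.16 (SE 0.056, 95% confidence interval -0.28 to -0.05, adjusted p = 0.0175, edgeR), and the call was lost in 5 of 15 alternatives, including those without vitrified–warmed replicate 1 (-0.12, adjusted p = 0.106) and without fresh replicate 2 (-0.16, adjusted p = 0.0622). Tyms-ps, a pseudogene of Tyms listed separately, had 11, 19 and 13 fragments in vitrified–warmed libraries and 0, 3 and 5 in fresh libraries, the opposite direction to Tyms. Of the 75-base stretches of Tyms, 4.85% occur in another gene.

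Mthfd2, the mitochondrial dehydrogenase and cyclohydrolase that is abundant in embryonic and proliferating cells (chr6:83305704-83325947, minus strand, 11 exons), was the only one of the 8 genes called higher. It had 384, 358 and 409 fragments in vitrified–warmed libraries and 320, 340 and 342 in fresh libraries. At 35.8, 38.9 and 36.3 CPM, every vitrified–warmed library was above the fresh libraries, which had 29.4, 30.1 and 29.3 CPM. The log2 fold change of Mthfd2 was 0.32 (SE 0.075, 95% confidence interval 0.16 to 0.48, adjusted p = 0.00143, edgeR), or 24.9% higher. Mob1a, which encodes a Hippo pathway adaptor and begins 85 bases beyond the Mthfd2 span on the opposite strand, also rose, with a log2 fold change of 0.33 (SE 0.057, adjusted p = 0.000101, edgeR), with 1072, 879 and 1197 fragments in vitrified–warmed libraries and 827, 953 and 934 in fresh libraries. The Mthfd2 start site whose promoter is printed above, at 83317604, lies inside that span and farther from Mob1a, which begins at 83326033.

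The other mitochondrial enzymes did not pass the test. Shmt2, the mitochondrial serine hydroxymethyltransferase (chr10:127517123-127522444, minus strand, 13 exons), had 17.5, 22.1 and 20.3 CPM in vitrified–warmed libraries and 17.1, 19.2 and 17.0 CPM in fresh libraries, from 186 to 228 fragments a library. These ranges overlap. Its log2 fold change was 0.16 (SE 0.11, adjusted p = 0.208, edgeR), and its 95% confidence interval, -0.07 to 0.39, still allows a rise as large as that of Mthfd2. Mthfd1l, the mitochondrial synthetase that releases formate (chr10:3970441-4167081, plus strand, 32 exons), had the lowest counts of the 8 genes, with 101, 69 and 119 fragments (9.43, 7.5 and 10.6 CPM) in vitrified–warmed libraries and 109, 102 and 104 fragments (10.02, 9.03 and 8.91 CPM) in fresh libraries. The vitrified–warmed libraries spread on both sides of the fresh ones. At this depth the log2 fold change of -0.01 (SE 0.15, adjusted p = 0.943, edgeR) leaves a 95% confidence interval of -0.33 to 0.31, wide enough to hold a change of the size of Tyms in either direction.

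**Figure D2:**
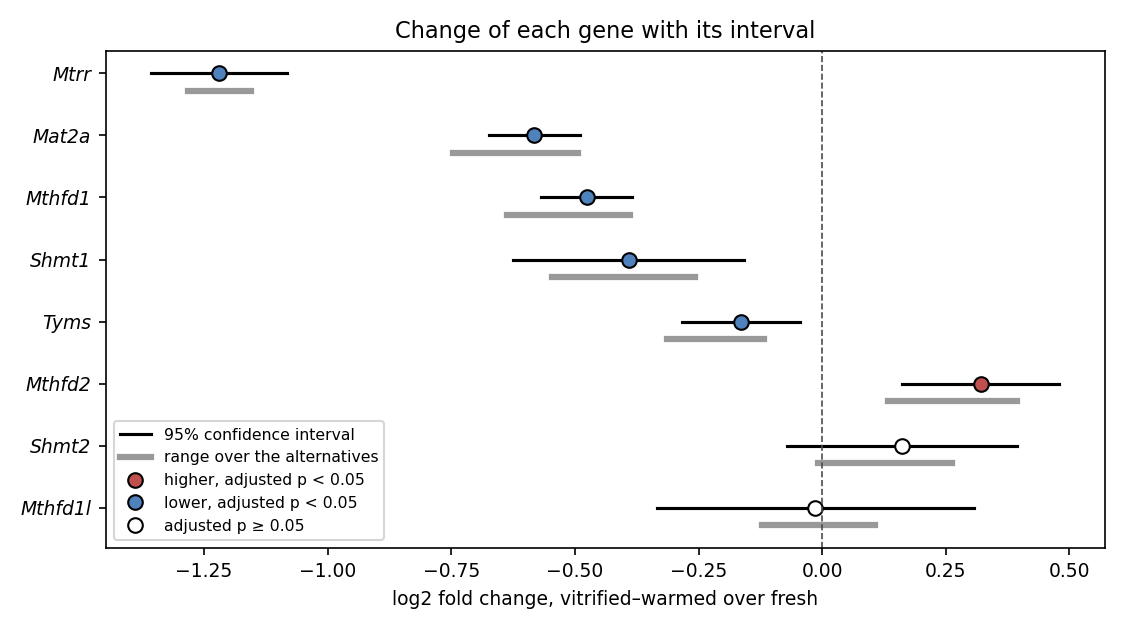
Log2 fold change of each gene, vitrified–warmed over fresh (x axis), with its 95% confidence interval (black) and the range of the value over the alternative analyses (grey), filled by direction where the adjusted p was under 0.05. Mtrr stands alone at -1.22, 4 more genes lie between -0.58 and -0.16, Mthfd2 lies at 0.32, and the intervals of Shmt2 and Mthfd1l include 0.

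Because FPKM divides by exon length, it allows levels to be set roughly side by side between genes. The length used is that of each gene entry, and the length of the transcripts expressed here was not checked. In vitrified–warmed blastocysts the order ran from Mat2a (30.0 ± 2.0 FPKM, SD, n = 3) and Mthfd1 (22.4 ± 0.98) through Mthfd2 (8.73 ± 0.29), Tyms (6.17 ± 0.24), Shmt1 (5.76 ± 1.1), Shmt2 (4.83 ± 0.53) and Mtrr (3.75 ± 0.11) to Mthfd1l (0.72 ± 0.13). In fresh blastocysts it ran from Mat2a (50.6 ± 0.50 FPKM) and Mthfd1 (35.2 ± 0.38) through Mtrr (9.83 ± 0.34), Shmt1 (8.54 ± 0.33), Mthfd2 (7.86 ± 0.096), Tyms (7.79 ± 0.029) and Shmt2 (4.85 ± 0.31) to Mthfd1l (0.824 ± 0.063). Mtrr thus ranked 7 of 8 in vitrified–warmed blastocysts and 3 of 8 in fresh blastocysts, and Mthfd2 ranked 3 and 5. Among neighbours in these orders, the libraries overlapped between Tyms and Shmt1 and between Shmt1 and Shmt2 in vitrified–warmed blastocysts, and between Mthfd2 and Tyms in fresh blastocysts, so their order was not resolved. These orders are descriptions of levels within each group and were not tested.

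The size of each change depended on the scale. On log2(FPKM + 0.5), tested with limma, the median of all genes was itself -0.13, against -0.0011 for the scaled counts. On that scale Mthfd2 was 0.14 higher in vitrified–warmed blastocysts (adjusted p = 0.0277, limma), in place of 0.32 on the scaled counts, and it kept its call in all 15 alternatives, with adjusted p-values of 0.000266 to 0.0277. Shmt2 stood at -0.0089 on that scale and at 0.16 on the scaled counts, and neither value passed the test. The genes that fell were further from 0 on FPKM, with Mtrr at -1.28, Mat2a at -0.75, Mthfd1 at -0.64, Shmt1 at -0.55 and Tyms at -0.31. Scaled instead by 12 housekeeping genes, as the study's methods describe for its own values, the changes were -1.19 for Mtrr, -0.55 for Mat2a, -0.45 for Mthfd1, -0.36 for Shmt1, -0.13 for Tyms and 0.35 for Mthfd2, and Tyms lost its call. The direction of each called gene was the same on all 3 scales.

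The balance between the mitochondrial and the cytosolic enzyme of each step can be read within a library, where the scaling between libraries drops out. The log2 ratio of Mthfd2 over Mthfd1 fragments was -1.94, -1.73 and -1.88 in vitrified–warmed libraries and -2.63, -2.66 and -2.66 in fresh libraries. It was 0.80 higher (SE 0.065) in vitrified–warmed blastocysts, the widest shift of the 4 ratios computed. Shmt2 over Shmt1 stood at -0.54, 0.27 and -0.31 in vitrified–warmed libraries and at -0.76, -0.66 and -0.90 in fresh libraries, 0.58 higher (SE 0.25), and vitrified–warmed replicate 2, the library with few Shmt1 fragments, gave the highest of these values: without that library the difference was 0.34 (SE 0.12). Mthfd1l over Mthfd1 was -3.87, -4.10 and -3.66 in vitrified–warmed libraries and -4.19, -4.39 and -4.38 in fresh libraries, 0.44 higher (SE 0.14). Thus all 3 ratios of a mitochondrial to a cytosolic enzyme were higher in each vitrified–warmed library than in any fresh library. The ratios are not separate results, as Mthfd2 and Mthfd1l are both set over Mthfd1, which fell. Shmt2 and Mthfd1l were not themselves called. Among single genes, 68.6% of those tested did not overlap between the groups, and no such share was computed for ratios.

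Within the methionine branch, the log2 ratio of Mat2a over Mtrr fragments was 2.53, 2.44 and 2.60 in vitrified–warmed libraries and 1.87, 1.93 and 1.86 in fresh libraries. This ratio was 0.64 higher (SE 0.051) in vitrified–warmed blastocysts, so that Mtrr was lower relative to Mat2a in each vitrified–warmed library than in any fresh library. For each of the 4 ratios the exact permutation test gave a two-sided p of 0.1, and 0.1 after Benjamini–Hochberg adjustment over the 4, which is the smallest p that 3 against 3 libraries allow, and the design cannot take any of them below it.

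**Figure D3:**
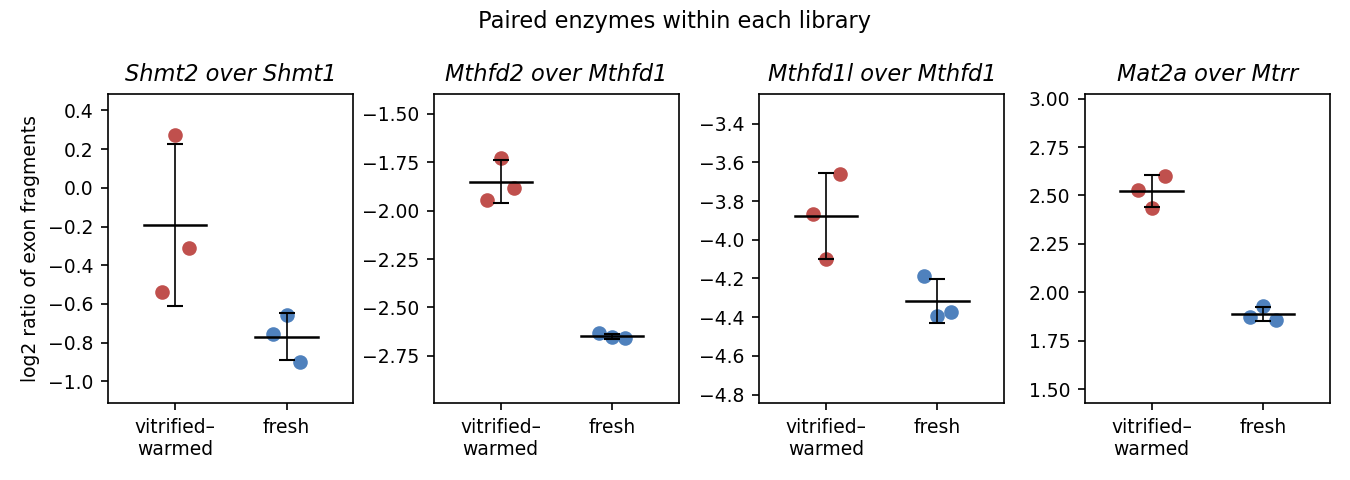
Log2 ratio of exon fragments of paired enzymes within each library (y axis, each panel spanning the same height on the log2 scale), in vitrified–warmed (red, left) and fresh libraries (blue, right), with the mean (line) and SD (bar). In all 4 panels every vitrified–warmed library lies above every fresh library, by the widest margin in Mthfd2 over Mthfd1.

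Beyond the 8 enzymes, 86 further genes of folate, methionine and linked metabolism were sorted into 12 lists, and 75 of them passed the filter on low counts. Of these 75, 36 were lower and 13 higher in vitrified–warmed blastocysts, and 26 were not called, with a median log2 fold change of -0.20 beside -0.0011 over all genes tested. The edgeR background was 32.8% lower and 31.6% higher, or 64.4% called in either direction. The lists were chosen with earlier results of these data known, so these counts are descriptions. On log2(FPKM + 0.5), with limma, 50 were lower and 8 higher, beside 5542 lower and 2647 higher of all 12774 genes. With the correction for exon length, 33 were lower and 18 higher, beside 4121 lower and 3970 higher of all genes. All p-values for these genes come from edgeR over all genes tested.

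Around the entry of folate and serine, 3 of 7 genes tested for folate uptake and activation were lower and 1 was higher, and 5 of 8 genes of serine supply and glycine cleavage were lower and none higher. The folate carrier Slc25a32 (-0.42, SE 0.11) and the folate receptor Folr1 (-0.38, SE 0.053) were among those that fell, and the lysosomal hydrolase Ggh, at 14 to 27 fragments in vitrified–warmed libraries and 2 to 5 in fresh libraries, rose. Phgdh, the first enzyme of serine synthesis, had 1181, 1031 and 1267 fragments in vitrified–warmed libraries and 2185, 2262 and 2252 in fresh libraries (-0.83, SE 0.042, adjusted p = 1.12e-09), whereas the next enzymes of that route, Psat1 (-0.07, adjusted p = 0.0847) and Psph (0.30, adjusted p = 0.0772), were not called. The mitochondrial serine carrier Sfxn1 (-0.65, SE 0.11) and Gldc, Gcsh and Dld of the glycine cleavage system (-0.27, -0.27 and -0.21) fell.

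Other folate enzymes were lower in 4 of 6 genes tested and higher in none, with Mtfmt, which formylates the mitochondrial initiator tRNA (-1.004, SE 0.11, adjusted p = 1.85e-06), Aldh1l1 (-0.46) and Dmgdh (-0.26) among them. Mthfs, which returns 5-formyltetrahydrofolate to the cycle, showed the largest fall of the 75 genes (-3.63, SE 0.42, adjusted p = 2.44e-06), with 2, 2 and 6 fragments in vitrified–warmed libraries and 43, 46 and 49 in fresh libraries. Its copy Mthfsl went the other way, with 76, 73 and 77 fragments in vitrified–warmed libraries and 10, 4 and 8 in fresh libraries (3.46, SE 0.30, adjusted p = 1.37e-07). As 14.9% of the 75-base stretches of Mthfs occur in another gene, mostly Mthfsl, the split of reads between the copies is uncertain. Their sum was 78, 75 and 83 fragments in vitrified–warmed libraries and 53, 50 and 57 in fresh libraries. The sum was thus higher in vitrified–warmed libraries (log2 ratio of mean CPM 0.69, not tested), the opposite direction to Mthfs alone. The 4 lower calls here, and the 36 over all lists, count Mthfs without its copy. The sources do not assign the strains C57BL/6JNarl and B6CBF1 to groups, and the part of strain in these values was not tested.

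Among the users of folate carbon, purine synthesis was lower in 4 of 6 genes and higher in none, with Gart and Atic, the enzymes of this route that take formyl groups from folate, at -0.20 each (SE 0.050 and 0.062) beside Ppat (-0.34, SE 0.045) and Paics (-0.20). Deoxynucleotide supply was mixed, with 3 of 6 genes higher and 2 lower. Rrm1 (0.21, SE 0.036), Rrm2 (0.11, SE 0.035) and Dut, which makes the dUMP that Tyms uses (0.25, SE 0.083), rose, while Dtymk, which phosphorylates the product of Tyms (-0.34, SE 0.072), and Dctd (-0.22, SE 0.084) fell. The mean of Rrm2 was 118.5 FPKM in vitrified–warmed and 124.1 FPKM in fresh libraries, the opposite direction to its scaled counts. For Dut the groups overlapped on CPM (107.4 to 137.3 against 102.6 to 111.5) and on FPKM.

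The genes next to Mtrr and Mat2a are those of the methionine cycle, of which 6 of 10 tested were lower and 2 higher. Mtr, the methionine synthase that Mtrr reactivates, had 373, 298 and 400 fragments in vitrified–warmed libraries and 534, 548 and 593 in fresh libraries (log2 fold change -0.53, SE 0.069, adjusted p = 8e-06), so that both partners of this reaction were lower. Mat2b, the regulatory partner of Mat2a (-0.28), Mettl16, a methyltransferase that acts on Mat2a RNA (-0.38), Bhmt (-0.31) and its paralog Bhmt2 (-0.54, SE 0.18), which remethylate homocysteine without folate, and Slc25a26, the mitochondrial carrier of the Mat2a product (-1.40, SE 0.16, adjusted p = 2.78e-06), fell too. Adk, which clears adenosine released in the cycle (0.67, SE 0.12), and Ahcyl2 (0.27, SE 0.10) rose. Cobalamin handling, on which Mtr depends, was lower in 2 of 9 genes, Mmab (-1.93, SE 0.22, adjusted p = 2.02e-06) and Mmadhc (-0.58, SE 0.081), and higher in 1, Abcd4 (0.52, SE 0.11). Mmab serves the mitochondrial cobalamin enzyme rather than Mtr.

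Downstream of Mat2a, methionine salvage and polyamine synthesis were lower in 7 of 9 genes and higher in none. Mtap, the first enzyme of salvage, had 61, 65 and 78 fragments in vitrified–warmed libraries and 251, 241 and 267 in fresh libraries (log2 fold change -1.77, SE 0.12, adjusted p = 1.62e-08), and Apip changed by -1.04 (SE 0.18). Neither transsulfuration gene was called, Cbs at -0.18 (SE 0.091, adjusted p = 0.101) and Cth at 0.12 (SE 0.10, adjusted p = 0.317). Of the small-molecule methyltransferases that spend the Mat2a product, 2 were tested. Pemt (-0.31, SE 0.043) fell, and the other is not reported here. Gnmt, Nnmt and Gamt did not pass the filter on low counts. Dnmt1, the maintenance DNA methyltransferase (-0.45, SE 0.058, adjusted p = 7.52e-06), and Dnmt3l (-0.25, SE 0.085) fell, Dnmt3a (0.35, SE 0.059) rose, and Dnmt3b and Uhrf1 were not called.

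Atf4, a stress-response transcription factor known to act on Mthfd2, Shmt2 and Mthfd1l in mouse and human cells, had 1262, 1150 and 1356 fragments in vitrified–warmed libraries and 871, 988 and 998 in fresh libraries (log2 fold change 0.52, SE 0.051, adjusted p = 4.4e-07). In the list of Atf4 and its targets, which counts Atf4 itself, 4 of 5 genes tested were higher and none lower. Over all genes tested, 31.6% were higher and 32.8% lower. Trib3 (1.03, SE 0.27), Ddit3 (0.82, SE 0.16) and Sesn2 (0.30, SE 0.12) were higher beside Atf4. Asns (0.22, adjusted p = 0.0721, edgeR) was not called, and Chac1 and Slc7a11 did not pass the filter on low counts. The list is a selection. Phgdh, which fell, and Psat1 and Psph (0.30), which were not called, were counted with serine supply. Aldh1l2 (-0.97, adjusted p = 0.0515, edgeR), counted with the other folate enzymes, was lower but not called. Of the Atf4 targets among the 8 enzymes, Mthfd2 alone was called higher.

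**Figure D4:**
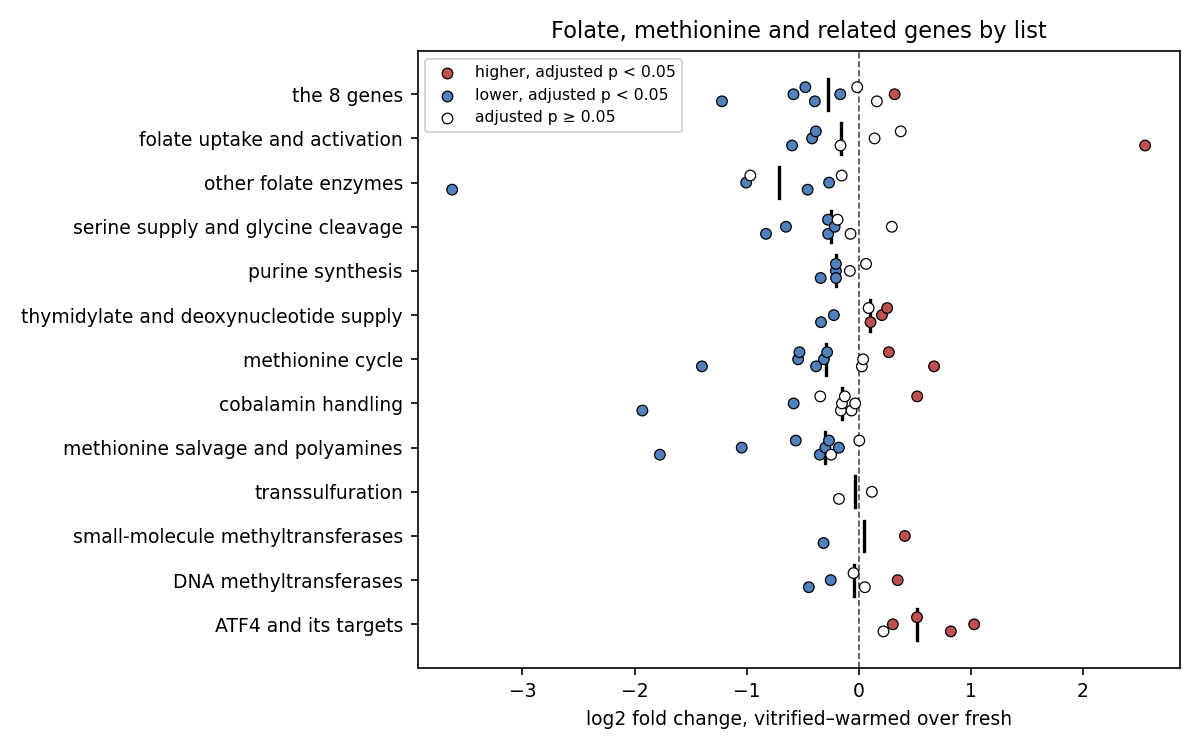
Log2 fold change, vitrified–warmed over fresh (x axis), of the 8 genes (top) and of the 75 further genes tested, by list, each circle a gene, red if higher and blue if lower at an adjusted p under 0.05, with the median of each list as a black bar. Medians lie below 0 in most lists and above 0 in thymidylate and deoxynucleotide supply, small-molecule methyltransferases and Atf4 and its targets.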

How the data were processed

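RNA of pooled mouse blastocysts was made into libraries with the Ovation SoLo kit and sequenced as paired ends. The authors used CLC Genomics Workbench for trimming and for alignment to GRCm38, and deposited exon fragment counts per gene as whole numbers, without normalization. The authors also deposited FPKM values, computed from these counts, the exon length in bases (another deposited column) and a library total larger than the sum of exon fragments. The annotation release is not given in the sources used here. Deposited group means, fold changes and p-values of the authors' comparison were not used, and 8 entries without a gene name, which held 0% of exon fragments, were left out. Libraries were matched to groups by column name.

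After filterByExpr, counts were tested with edgeR 4.0.16 in R 4.3.3 (TMM scaling, robust quasi-likelihood test), with Benjamini–Hochberg adjustment over 12774 genes. CPM are exon fragments of the genes tested over their TMM-scaled library total. Ratios within libraries used an exact permutation test (Python 3.11.15, scipy 1.17.1). The members and lists were chosen with earlier results of these data known. From each list, up to 2 genes called higher and 2 called lower with a mean above 0.5 FPKM were named, largest change first, and other names were chosen after their values were seen. Of the genes this rule names, 2 are not reported here. Alternatives were DESeq2 1.42.0, scaling by 12 housekeeping genes or by library totals, leaving out the count filter, a minimum mean of 1 FPKM, limma 3.58.1 on log2(FPKM + 0.5) or log2(FPKM + 1), a correction for exon length, a replicate block and each library left out in turn.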

Additional observations from a re-analysis of the deposited data

How the results depend on the processing

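Of the 8 genes, 5 kept their call in all 15 alternatives: Mtrr (log2 fold change -1.28 to -1.16), Mat2a (-0.75 to -0.49), Mthfd1 (-0.64 to -0.39), Shmt1 (-0.55 to -0.26) and Mthfd2 (0.13 to 0.39). Tyms was lower in all 15 (-0.31 to -0.12) and lost its call in 5, with adjusted p-values of 0.0532 under the housekeeping scaling, 0.052 with only genes above 1 FPKM, 0.0763 with the exon length correction, 0.106 without vitrified–warmed replicate 1 and 0.0622 without fresh replicate 2 (edgeR), and the cause was not tested. Shmt2 (-0.0089 to 0.26) and Mthfd1l (-0.12 to 0.11) were never called and changed sign in 2 and 5 alternatives, Mthfd1l having no value with only genes above 1 FPKM.

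On log2 FPKM, limma put the median of all genes at -0.13 (with 0.5 added) and -0.11 (with 1 added), and the values of the 8 genes on that scale include this shift. With these 2 scales 2647 and 2616 genes were higher and 5542 and 5530 lower, 8 and 8 of the other pathway genes were higher and 50 and 50 lower, and at the study's thresholds 607 and 459 genes were higher and 1690 and 1345 lower. With only genes above 1 FPKM, 2784 genes were lower, from fewer genes tested. A 2-fold threshold left 557 genes higher and 645 lower.

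Same-numbered libraries did not deviate together (correlations -0.042, -0.0093 and -0.016), and the main test used no pairing. With 3 libraries per group, these values cannot show whether same-numbered libraries shared a processing step. With a replicate block, 3890 genes were higher and 4073 lower, and the 8 genes kept their calls. Total and uniquely mapped fragments were not run, as the table used here gives exon fragments alone. The 4 ratios within libraries kept their sign without any 1 library, at 0.34 to 0.75 for Shmt2 over Shmt1, 0.74 to 0.85 for Mthfd2 over Mthfd1, 0.33 to 0.55 for Mthfd1l over Mthfd1 and 0.60 to 0.68 for Mat2a over Mtrr.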
